A study of Mus musculus with 6 samples.

Results

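Central myelin genes encode the proteins that oligodendrocytes use to build and keep the myelin sheath around axons of the brain and spinal cord. The 9 genes described here, Mbp, Mog, Mag, Mobp, Cnp, Ugt8a, Mal, Opalin and Myrf, were taken by symbol out of 54532 genes, and all 9 were found once each and passed the filter on low values. They were measured by RNA sequencing of the cervical spinal cord of C57BL/6 mice, with 1 library per mouse. In 3 imiquimod mice, 50 mg of a 5% imiquimod cream had been spread on the shaved back of the neck once a day on 2 days to induce a psoriasis-like dermatitis. The other 3 mice had the same amount of vehicle cream, and no age or sex is given in the labels. Imiquimod is an agonist of Toll-like receptor 7, and every value comes from bulk tissue, a mixture of all its cell types.

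Oligodendrocytes wrap axons in many layers of membrane, which compact as the cytoplasm is squeezed out. Basic and proteolipid proteins hold the layers together, galactolipids make up much of the membrane, and surface glycoproteins face the axon or the outside of the sheath. Mature oligodendrocytes switch these genes on together under the transcription factors Sox10 and Myrf. Schwann cells, which myelinate the spinal roots and peripheral nerves, also use Mbp, Mag, Cnp, Mal and Ugt8a, whereas Mog, Mobp and Opalin are known as genes of the central sheath.

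Fragments recovered from the deposited values came to 21242427 to 23200987 per imiquimod library and 18174423 to 20672891 per vehicle library. The least abundant counts among the 9 genes, those of Opalin, were 1550 to 2454 fragments per library, so counting error is small beside the spread between mice. In imiquimod replicate 3, Gapdh was listed at 26.4 FPKM, against 1.56 to 2.15 FPKM in the other 5 libraries. Which of these Gapdh values, if any, reflects the true level was not tested. Imiquimod replicate 3 also had the lowest imiquimod value of 8 of the 9 genes. Each of the 9 changes is therefore also given without it. Of 7 mature oligodendrocyte markers that were checked, all were present in every library, the lowest being Aspa at 9.47 to 13.2 FPKM.

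The comparison sets the cervical cord of mice with the neck dermatitis against that of mice given vehicle cream. Ugt8a, the enzyme that makes galactocerebroside, and Opalin, a glycoprotein of oligodendrocytes, were lower in imiquimod cords, at 55.1% and 65.2% of their vehicle means. No gene of the 9 was higher by limma, 0 at an unadjusted p under 0.05 and 0 with voom. Mbp stood at 69.4% of its vehicle mean without passing the test, and the other 6 lay between 85.6% and 96.9%. All 9 log2 changes were negative, with a median of -0.22, against a median of -0.01 and 50.9% negative over all 16513 genes tested. Without imiquimod replicate 3 that median of the 9 was -0.11, and with length and GC trends removed it was -0.39. The 2 lower genes of 9 stand beside 5.34% of all genes tested that were lower and 8.74% that were higher at a limma adjusted p under 0.05. Of those calls over all genes 1444 were higher and 882 lower, a split that turned to 1255 higher and 1574 lower with length and GC trends taken out, and to 1335 higher and 1287 lower after quantile normalization.

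Ugt8a (UDP galactosyltransferase 8A) catalyses the last step in the synthesis of galactocerebroside, a main lipid of myelin. It lies on chromosome 3 at 125865271 to 125938619 on the minus strand (mm10, GENCODE M21), with 4536 bases of exon in 6 blocks. Expression was 76.5, 87.8 and 61.0 FPKM in imiquimod cords, against 156, 131 and 122 FPKM in vehicle cords. Every imiquimod library lay below every vehicle library, a separation downward that 18.0% of all genes tested showed. The means were 75.1 ± 13.5 FPKM in imiquimod and 136 ± 17.5 FPKM in vehicle mice (SD, n = 3 each), a log2 change of -0.87 ± 0.15 (limma adjusted p = 0.0132). The 95% interval ran from -1.22 to -0.51, or 0.428 to 0.701 times the vehicle level. The gene passed in 16 of 17 alternatives and had an adjusted p of 0.0531 without vehicle replicate 1, its highest library. Without imiquimod replicate 3 the change was -0.73 (limma adjusted p = 0.0276).

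Opalin, a short transmembrane glycoprotein found in oligodendrocytes of mammals, lies on chromosome 19 at 41061710 to 41077113, minus strand. Its level was 33.5, 29.3 and 22.4 FPKM in imiquimod cords, against 47.1, 42.7 and 40.9 FPKM in vehicle cords. The groups did not overlap, with imiquimod replicate 1 nearest to the vehicle mice. Means of 28.4 ± 5.58 FPKM in imiquimod and 43.5 ± 3.18 FPKM in vehicle mice (SD, n = 3 each) gave a log2 change of -0.63 ± 0.14 (limma adjusted p = 0.0328). Opalin missed the threshold when vehicle replicate 1, 2 or 3 was left out (adjusted p = 0.121, 0.092 and 0.0823) and with no filter on low values (0.0631). It passed without imiquimod replicate 3, with a change of -0.47 (limma adjusted p = 0.0389).

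**Figure D1:**
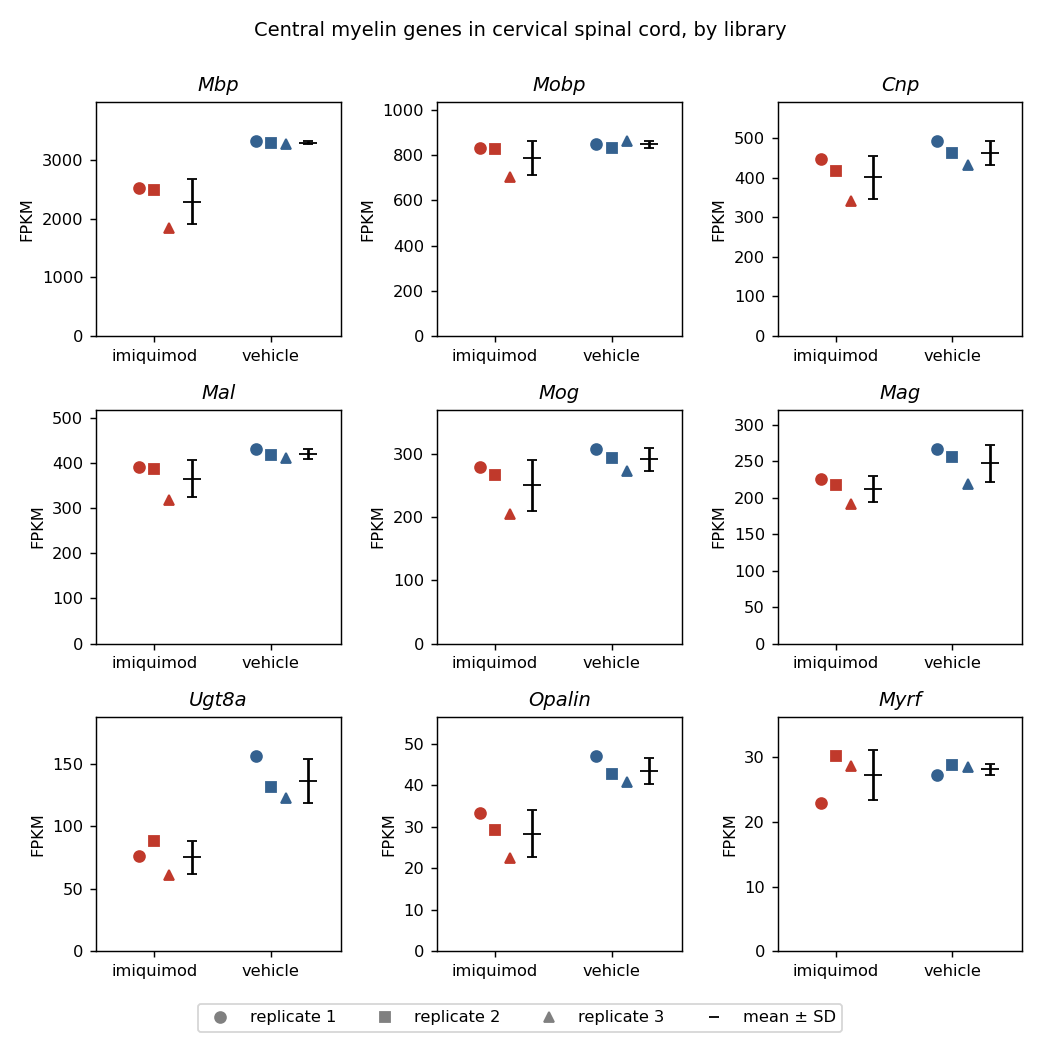
FPKM of the 9 central myelin genes in each library, imiquimod mice in red and vehicle mice in blue, with 1 panel per gene, marker shapes for replicates and black bars for the mean ± SD (n = 3). Ugt8a, Opalin, Mbp and Mal have all 3 imiquimod libraries below all 3 vehicle libraries, as did 18.0% of all genes tested. Imiquimod replicate 3 is the lowest imiquimod library in every panel except Myrf.

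Mbp encodes myelin basic protein, which binds the inner faces of the membrane and compacts the sheath, and also the longer golli transcripts that start upstream. The gene spans 82475146 to 82585637 on chromosome 18, plus strand, and its 16 annotated transcripts were counted together. It was the most abundant of the 9, at 2525, 2490 and 1840 FPKM in imiquimod cords, against 3324, 3292 and 3265 FPKM in vehicle cords. The coefficient of variation was 16.9% among imiquimod mice and 0.896% among vehicle mice, and the groups were separate. The log2 change of -0.54 ± 0.16 had a 95% interval of -0.92 to -0.17 and did not pass over all genes (limma adjusted p = 0.0661). It passed in 5 of 17 alternatives, among them the fit without imiquimod replicate 3 (-0.39, limma adjusted p = 0.0371). The others were array weights (0.0374), voom on recovered fragments (0.0206), the TPM scale (0.0201) and quantile normalization (0.0421). After quantile normalization the change was -0.25, the smallest of the 17. Mbp alone took 1.58% to 2.08% of all fragments in imiquimod libraries and 2.62% to 2.67% in vehicle libraries. All 9 genes together took 2.45% to 3.09% in imiquimod and 3.65% to 3.77% in vehicle libraries.

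Mobp, which encodes a small basic protein of compact central myelin, did not pass. It was at 834, 830 and 702 FPKM in imiquimod cords, against 849, 833 and 864 FPKM in vehicle cords. Imiquimod replicate 1 lay above vehicle replicate 2, so the groups overlapped. The log2 change was -0.11 ± 0.10, with a 95% interval of -0.35 to 0.13 (limma adjusted p = 0.505), and it came to -0.03 without imiquimod replicate 3. After quantile normalization Mobp was at -0.37 (limma adjusted p = 0.0118).

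The ratio of Mbp to Mobp was chosen after its values were seen and is unchanged by any single scaling factor per library. It was 3.03, 3.00 and 2.62 in imiquimod cords, against 3.91, 3.95 and 3.78 in vehicle cords. That of Ugt8a to Mobp was 0.0948 ± 0.00989 in imiquimod and 0.161 ± 0.0213 in vehicle mice (SD, n = 3 each). In both ratios the groups were separate, and no test was made of them because they were chosen on these values. The ratios were not adjusted for GC content, whose mean over transcripts was 40.9% for Ugt8a and 46.7% for Opalin. The other members ran from 50.8% to 57.4%, with Mobp at 52.5%. Ugt8a and Opalin kept their calls with length and GC trends removed. On the FPKM scale, Mbp and Ugt8a were lower relative to Mobp in every imiquimod library than in any vehicle library. After quantile normalization, which adjusts by rank, the log2 changes were -0.25 for Mbp, -0.37 for Mobp and -0.91 for Ugt8a. There Mbp fell less than Mobp. Among all genes Mbp ranked 6 in every vehicle library and 7, 7 and 8 in imiquimod replicates 1, 2 and 3. Quantile normalization gives equal ranks equal values, so the size and spread of its change there follow those ranks.

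Cnp (2',3'-cyclic nucleotide 3'-phosphodiesterase), an enzyme of the cytoplasmic channels of the sheath, and Mal, a proteolipid of membrane trafficking, did not pass. Cnp was 446, 416 and 341 FPKM in imiquimod cords, against 493, 462 and 432 FPKM in vehicle cords. Its groups overlapped, and the log2 change was -0.21 ± 0.12 (95% interval -0.49 to 0.07, limma adjusted p = 0.274), with -0.10 without imiquimod replicate 3 and -0.39 with length and GC trends removed. Mal was 390, 386 and 318 FPKM in imiquimod cords, against 432, 417 and 410 FPKM in vehicle cords. Its groups were separate, with a log2 change of -0.21 ± 0.10 (95% interval -0.45 to 0.03, limma adjusted p = 0.211), and it passed after quantile normalization (0.0413) and with length and GC trends removed (-0.41, adjusted p = 0.0427). Without imiquimod replicate 3 its change was -0.11. In Cnp, 154 exon bases are shared with Dnajc7 on the opposite strand, which was at 25.3 to 31.0 FPKM, and the strand setting of the counting is not given in the sources used here.

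Mog and Mag are immunoglobulin-type adhesion proteins of the surface, Mog (myelin oligodendrocyte glycoprotein) on the outermost layer and Mag (myelin-associated glycoprotein) on the innermost layer next to the axon. Mog was 280, 267 and 205 FPKM in imiquimod cords, against 308.5, 294 and 272 FPKM in vehicle cords. Mag was 225, 217 and 192 FPKM in imiquimod cords, against 267, 256 and 218 FPKM in vehicle cords. In both genes the groups overlapped, imiquimod replicate 1 lying above vehicle replicate 3. Their log2 changes were -0.23 ± 0.13 for Mog (95% interval -0.54 to 0.08, limma adjusted p = 0.279) and -0.22 ± 0.10 for Mag (95% interval -0.47 to 0.03, limma adjusted p = 0.207). Without imiquimod replicate 3 they were -0.09 for Mog and -0.15 for Mag, and with length and GC trends removed both were -0.36. Neither passed in any of 17 alternatives.

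Myrf (myelin regulatory factor) is the membrane-bound transcription factor that cuts itself free and turns on myelin genes in maturing oligodendrocytes. It was the least abundant of the 9 in vehicle cords and the nearest to its vehicle level, at 23.0, 30.2 and 28.7 FPKM in imiquimod cords, against 27.2, 28.8 and 28.5 FPKM in vehicle cords. The imiquimod values spanned those of the vehicle mice. Its log2 change was -0.05 ± 0.11, with a 95% interval of -0.31 to 0.20 (limma adjusted p = 0.765), turned to 0.06 without imiquimod replicate 1 (limma adjusted p = 0.478), and was -0.10 without imiquimod replicate 3. On the fold scale that interval spans 0.809 to 1.15 times the vehicle level.

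**Figure D2:**
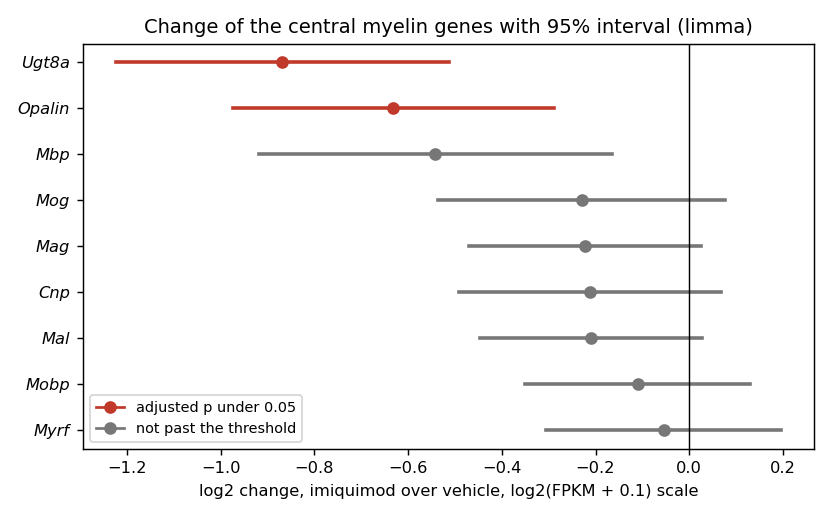
Log2 change of each central myelin gene, imiquimod over vehicle, on the log2(FPKM + 0.1) scale, as a point with its 95% interval from limma (n = 3 each), sorted by size. Ugt8a at -0.87 and Opalin at -0.63 are past an adjusted p of 0.05 (red), Mbp at -0.54 has an interval below 0 without passing over all genes, and the intervals of the other 6 include 0.

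By mean level per length of exon, the order was Mbp, Mobp, Cnp, Mal, Mog, Mag, Ugt8a, Opalin and Myrf in both groups. The ranges of Cnp and Mal, of Mog and Mag, and of Opalin and Myrf overlapped in imiquimod cords, and no neighbours overlapped in vehicle cords. Opalin was below Myrf in imiquimod replicates 2 and 3 and above it in the other 4 libraries. The ratio of Opalin to Myrf was 1.46, 0.972 and 0.781 in imiquimod cords, against 1.73, 1.48 and 1.44 in vehicle cords, so these groups overlapped. Within groups the coefficient of variation of the 9 genes ran from 8.24% to 19.6% in imiquimod mice, with a median of 14.0%, and from 0.896% to 12.9% in vehicle mice, with a median of 6.25%.

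Promoter sequences from RefSeq (GRCm38.p6) were used for 7 of the 9 genes. Mbp was left out of this part, and Myrf had no entry. They are shown as the 250 bases before the annotated start, read 5′ to 3′ along the gene. Shown are both genes that fell, Ugt8a and Opalin, and 3 of the 5 others used, Mobp, Cnp and Mog. Capitals mark matches, on either strand, to a SOX core (ACAAAG), to the Myrf motif (CTGGCAC or CTGGTAC) and to an E-box of the kind bound by Olig2 (CAGCTG or CAGATG).
Ugt8a, chr3:125938653-125938902, minus strand: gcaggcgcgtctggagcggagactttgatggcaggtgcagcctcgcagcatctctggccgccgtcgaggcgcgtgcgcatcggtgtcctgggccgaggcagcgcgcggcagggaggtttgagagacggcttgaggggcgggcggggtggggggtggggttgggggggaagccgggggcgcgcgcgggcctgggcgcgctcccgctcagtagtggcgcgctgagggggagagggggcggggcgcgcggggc
Opalin, chr19:41077114-41077363, minus strand: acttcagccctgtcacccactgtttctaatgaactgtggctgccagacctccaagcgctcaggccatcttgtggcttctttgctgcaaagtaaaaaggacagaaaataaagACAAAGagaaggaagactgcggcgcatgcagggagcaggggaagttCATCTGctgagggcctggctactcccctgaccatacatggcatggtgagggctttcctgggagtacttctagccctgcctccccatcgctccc
Mobp, chr9:120149492-120149741, plus strand: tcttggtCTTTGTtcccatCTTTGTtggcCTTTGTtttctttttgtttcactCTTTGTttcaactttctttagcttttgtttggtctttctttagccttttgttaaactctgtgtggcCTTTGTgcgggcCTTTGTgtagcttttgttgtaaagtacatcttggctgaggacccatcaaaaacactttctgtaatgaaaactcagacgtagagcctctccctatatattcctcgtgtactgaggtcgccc
Cnp, chr11:100574689-100574938, plus strand: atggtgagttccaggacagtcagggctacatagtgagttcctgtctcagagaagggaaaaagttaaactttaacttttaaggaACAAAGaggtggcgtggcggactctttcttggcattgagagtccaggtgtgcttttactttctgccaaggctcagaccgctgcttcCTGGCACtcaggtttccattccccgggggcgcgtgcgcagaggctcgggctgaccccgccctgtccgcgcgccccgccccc
Mog, chr17:37023399-37023648, minus strand: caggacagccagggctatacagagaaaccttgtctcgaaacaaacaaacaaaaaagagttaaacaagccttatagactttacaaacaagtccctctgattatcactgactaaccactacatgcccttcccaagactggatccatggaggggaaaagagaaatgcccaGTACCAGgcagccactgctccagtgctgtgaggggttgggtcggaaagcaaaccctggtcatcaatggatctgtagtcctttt
No marked letters were found in this window of Ugt8a, whose GC content was 76.8%, the highest of the 5. Opalin had 1 SOX match and 1 E-box match, which do not overlap. Mobp, with a GC content of 40.8%, had 6 SOX matches, Cnp 1 SOX and 1 Myrf match, and Mog 1 Myrf match. Of those not shown, Mal had no match, as in Ugt8a, and of 3 entries for Mag 2 had 1 SOX and 1 Myrf match each and 1 had none. Over all 32851 promoters of this length in the table, a SOX match was found in 16.5%, a Myrf match in 5.93% and an E-box match in 25.5%. These are matches of letters, and no binding was measured.

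Of 26 other sheath genes tested, 8 were lower and 2 higher, 23 had a negative log2 change, and the median was -0.37. Over all genes tested, 5.34% were lower, 8.74% higher and 50.9% negative. Those shares stand beside the counts of this list and of the lists below. Pllp (plasmolipin, a tetraspan protein of myelin) was 15.3 ± 1.82 FPKM in imiquimod and 24.1 ± 1.02 FPKM in vehicle mice (log2 change -0.66 ± 0.10, limma adjusted p = 0.0074). Without imiquimod replicate 1 or 3 the lower sheath genes numbered 2 and 3, and without vehicle replicate 1, 2 or 3 they numbered 1, 2 and 3. Their number was also 2 with no filter on low values, 14 after quantile normalization, 15 with length and GC trends removed and 13 with voom.

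Against that direction, Cd9, a tetraspanin of myelin and of many other cells, was 58.0 ± 5.16 FPKM in imiquimod and 40.6 ± 2.38 FPKM in vehicle mice (0.51 ± 0.08, limma adjusted p = 0.0109). Its call held in all 17 alternatives. The other higher gene was Trf (transferrin, which oligodendrocytes make), at 0.73 ± 0.16 (limma adjusted p = 0.0286). Trf passed in 9 of 17 alternatives, and of the 6 fits without 1 library it passed only in the one without imiquimod replicate 3. Cldn11, the claudin of the tight junctions of the sheath, was named after its values were seen. It stood at 667, 610.5 and 583 FPKM in imiquimod cords, against 538, 526 and 481 FPKM in vehicle cords, separate upward but not past the threshold (0.27 ± 0.09, limma adjusted p = 0.104). Upward separation was found in 19.8% of all genes tested.

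Among 11 genes of myelin lipids other than Ugt8a, 4 were lower and 0 higher by limma (2 higher at an unadjusted p under 0.05, 0 with voom). Fa2h, which hydroxylates the fatty acids of myelin galactolipids, was 85.6 ± 7.28 FPKM in imiquimod and 116 ± 10.2 FPKM in vehicle mice (-0.44 ± 0.09, limma adjusted p = 0.0267). The glycolipid transfer protein gene Gltp (-0.35 ± 0.07, adjusted p = 0.0216) and Galc, the lysosomal enzyme that breaks galactocerebroside down (-0.38 ± 0.09, adjusted p = 0.0391), were lower too. Galc passed in 7 of 17 alternatives, in none of the 6 without 1 library, and was at -0.24 with length and GC trends removed (adjusted p = 0.216). Fa2h and Gltp both lost their calls without vehicle replicate 1 or 2, Fa2h also without imiquimod replicate 1 or 3, and Gltp without vehicle replicate 3. Gal3st1, which adds sulfate to the product of Ugt8a, was 31.5, 30.9 and 23.0 FPKM in imiquimod cords, against 40.0, 36.4 and 34.1 FPKM in vehicle cords, and did not pass (-0.38 ± 0.13, limma adjusted p = 0.105). Without imiquimod replicate 1 or 3 or vehicle replicate 3 only 1 lipid gene was lower, and without vehicle replicate 1 or 2 none. Only 1 was lower with no filter on low values as well.

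Of 15 transcription regulators of the oligodendrocyte lineage, 2 were lower and 0 higher by limma (1 higher at an unadjusted p under 0.05, 0 with voom). Without imiquimod replicate 3 or vehicle replicate 1 or 2 the lower genes numbered 0, without imiquimod replicate 1 or vehicle replicate 3 they numbered 1, and they numbered 4 after quantile normalization and with length and GC trends removed. Sox10, which keeps myelin genes on together with Myrf, was 37.3, 39.6 and 35.1 FPKM in imiquimod cords, against 51.5, 51.3 and 45.2 FPKM in vehicle cords (-0.40 ± 0.08, limma adjusted p = 0.0199). It missed the threshold without imiquimod replicate 3 (0.0562) and without vehicle replicate 1 (0.0928) or 2 (0.0821). Zeb2, the other lower gene, passed in 8 of 17 alternatives. Olig2, a lineage factor of all oligodendrocyte stages, was 35.3 ± 4.26 FPKM in imiquimod and 35.9 ± 0.658 FPKM in vehicle mice (-0.03 ± 0.09, limma adjusted p = 0.841), and its change turned to 0.07 without imiquimod replicate 3. Olig1 was at -0.23 ± 0.11 (limma adjusted p = 0.198). In bulk tissue, fewer oligodendrocytes and less RNA per oligodendrocyte cannot be told apart.

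**Figure D3:**
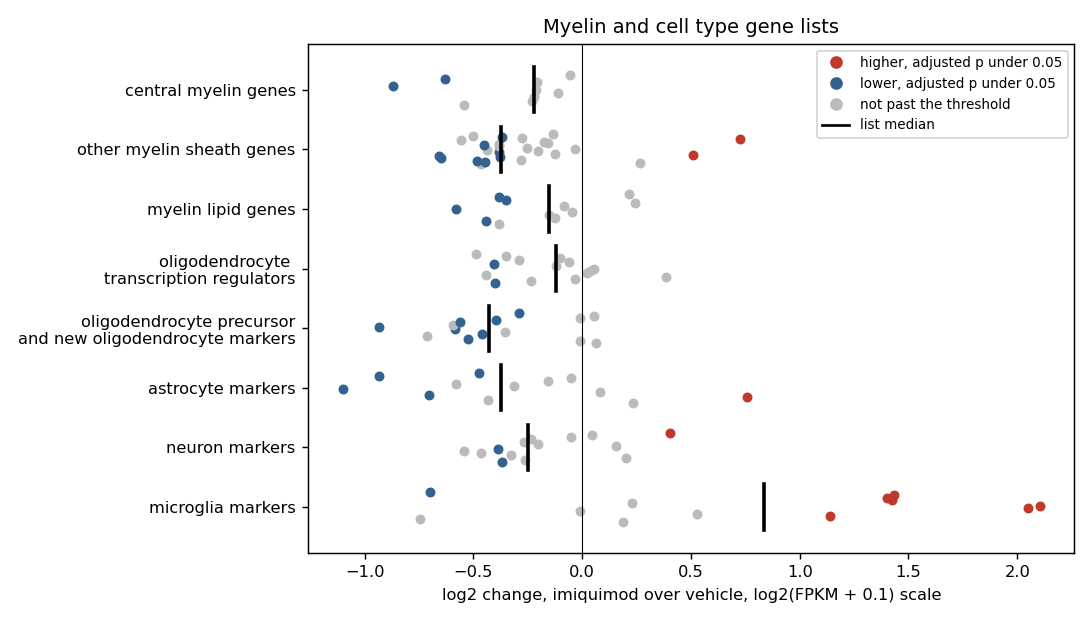
Log2 change, imiquimod over vehicle, of each tested gene in 8 lists, with red and blue points past a limma adjusted p of 0.05 upward and downward, grey points not past it and a black line at each list's median. The 9 central myelin genes all lie below 0 with a median of -0.22, beside -0.37 for other sheath genes, -0.43 for precursor and new oligodendrocyte markers and 0.84 for microglia markers.

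Markers of other cells differed in the same libraries. In the list for precursors and newly formed oligodendrocytes, 7 of 14 genes were lower and 0 higher by limma (0 higher at an unadjusted p under 0.05, 0 with voom), with a median of -0.43. Gpr17, a receptor of cells on the way to myelination, was 8.42, 9.73 and 6.53 FPKM in imiquimod cords, against 16.9, 15.6 and 14.5 FPKM in vehicle cords (-0.94 ± 0.15, limma adjusted p = 0.00935), and passed in all 17 alternatives. Pdgfra and Cspg4, which mark the precursors, were at 0.07 ± 0.17 and -0.01 ± 0.11 and did not pass. Ptprz1 and C1ql1 of the same list were lower, at -0.53 ± 0.10 and -0.59 ± 0.11 (limma adjusted p = 0.0183 and 0.0191). They passed in 12 and 13 of 17 alternatives. The list's lower genes numbered 3 without imiquimod replicate 1 or 3, 1 without any one vehicle library and 4 with no filter on low values. Of 12 astrocyte markers 4 were lower and 1 higher (median -0.37). The gap junction gene Gja1 was lower (-1.10 ± 0.06, limma adjusted p = 3.43e-04) and Aldh1l1 was the higher one (0.76 ± 0.08, limma adjusted p = 0.00217). Of 14 neuron markers 2 were lower and 1 higher (median -0.25), and of 12 microglia markers 6 were higher and 1 lower (median 0.84), with the complement gene C1qa at 1.42 ± 0.13 (limma adjusted p = 0.00158). Without any one vehicle library the lower neuron markers numbered 0, and without imiquimod replicate 2 they numbered 5. Lower astrocyte markers numbered 8 after quantile normalization. The summed level of the microglia list was 559 to 690 FPKM in imiquimod and 243 to 308 FPKM in vehicle libraries. C1qa, C1qb and C1qc made up 418 to 529 FPKM of it in imiquimod and 144 to 197 FPKM in vehicle libraries, and the other 9 markers 126 to 161 FPKM in imiquimod and 98.5 to 110.4 FPKM in vehicle libraries. Among these Itgam at 2.10, Aif1 at 2.05 and Tmem119 at 1.14 were higher (limma adjusted p = 0.00256, 0.00236 and 0.00125). Csf1r was at -0.01 and Fcrls was lower (-0.70, limma adjusted p = 0.00597). The part of these shifts in the values of the myelin genes was not tested.

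Schwann cells lie in the spinal roots, and their RNA differed between single mice. The 13 listed markers summed to 61.3 to 265 FPKM in imiquimod and 247 to 358 FPKM in vehicle libraries, none was at 0 throughout (Pmp2 was at 0 in imiquimod replicate 2), and of 11 tested 0 passed by limma (0 higher and 2 lower at an unadjusted p under 0.05, 0 with voom). Without imiquimod replicate 3 there were 2 lower. Prx, which encodes periaxin of the Schwann cell sheath, was 4.26, 0.289 and 8.36 FPKM in imiquimod cords, against 7.08, 5.61 and 9.45 FPKM in vehicle cords (-1.59 ± 1.04, limma adjusted p = 0.347). Imiquimod replicate 2 was the lowest of the 6 libraries, and the groups overlapped. The part of Schwann cell RNA in the values of the myelin genes was not tested. Without imiquimod replicate 2 the changes of Ugt8a and Opalin were -0.99 and -0.66 (limma adjusted p = 0.00863 and 0.0466).

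**Figure D4:**
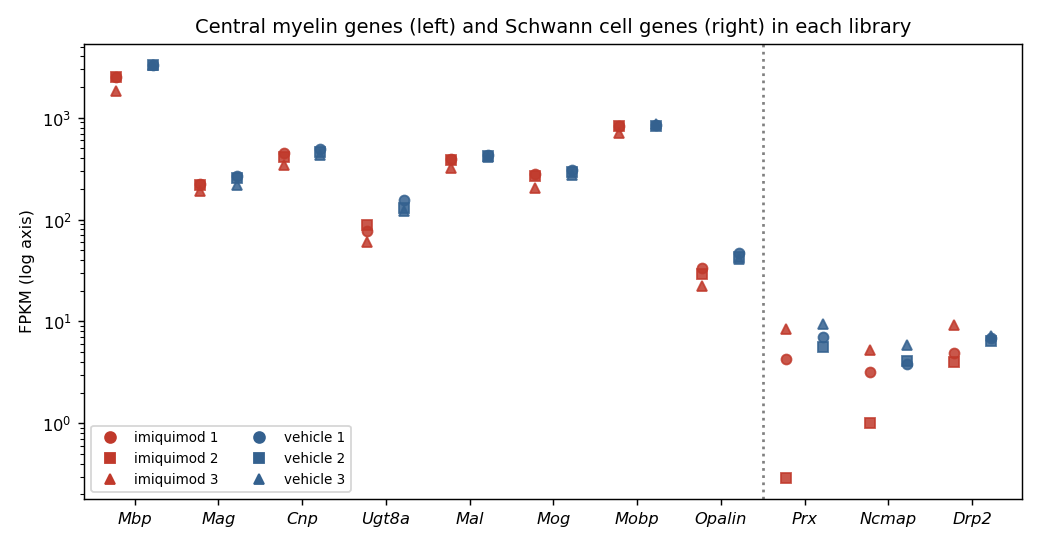
FPKM, on a log axis, of 8 central myelin genes (left of the dotted line) and 3 Schwann cell genes (right), with imiquimod libraries in red left of vehicle libraries in blue and marker shapes for replicates. Prx is at 0.289 FPKM in imiquimod replicate 2, the lowest of the 6 libraries, and any relation of the Schwann cell genes to the myelin genes was not tested.

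The genes whose pattern over the 6 libraries was nearest to the mean of the 9 were sought among 4994 other genes with a mean of at least 10 FPKM. Likeness was the root mean square difference between centred log2 values. The 5 nearest were Tekt5 (0.0228), Desi1 (0.0234), Fndc5 (0.0295), Abcd3 (0.0322) and Golga7 (0.0338). The distances of the 9 genes from their own mean ran from 0.0698 for Mal to 0.238 for Myrf and 0.28 for Ugt8a. The 5 nearest were picked by this distance out of 4994, so their smaller values follow from the choice. Desi1, the nearest of those above 50 FPKM, was 53.6 ± 6.45 FPKM in imiquimod and 67.2 ± 1.71 FPKM in vehicle mice. The mean profile itself stood at -0.078, -0.062 and -0.373 in imiquimod replicates 1, 2 and 3, and at 0.24, 0.17 and 0.104 in the vehicle libraries.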

How the data were processed

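RNA was extracted with Trizol and sequenced, per the labels' protocols. The authors deposited 1 FPKM value per gene and library, which corrects for exon length and library size. HISAT2 2.0.5, featureCounts 1.5.0-p3, DESeq2 1.16.1 and mm10 are named in the submitters' processing notes, with no role or order. The strand setting is not given in the sources used here. Since FPKM uses 1 exon length per gene, a shift between isoforms can move it. A names table gave symbols for 54409 of 54532 identifiers, and GENCODE M21, on the same assembly, exon lengths for 54495. FPKM times exon length came out as whole fragments within 0.05 for 97.4% to 97.6% of values under 1000 fragments, which gave the depths.

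Groups were compared with limma 3.58.1 (R 4.3.3, trended variance) on log2(FPKM + 0.1) over the 16513 genes with a mean of at least 0.5 FPKM in either group, Benjamini-Hochberg adjusted over all of them, with a threshold of 0.05. The procedure was run on simulated data in which every gene had the same spread beyond counting error in both groups. That run therefore does not cover the unequal spreads of the groups here. Changes are imiquimod over vehicle ± SE on that log2 scale, which understates those of low genes. Tables and plots used Python 3.11.15, pandas 2.3.3, NumPy 2.4.6 and matplotlib 3.10.9. The 17 alternatives varied the pseudocount, filter, scaling, length and GC trend, weights, replicate block, voom on recovered fragments and the libraries used. Named are all 9 genes, up to 3 called genes of each context list by smallest p, Sox10, Olig1, Olig2 and the 5 nearest in pattern. A few other genes of the lists are not reported here. Others were chosen after their values were seen. The genes and lists were chosen with earlier results of these data known.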

Additional observations from a re-analysis of the deposited data

How the results depend on the processing

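Ugt8a, Opalin, Mbp, Mog, Mag, Mobp, Cnp and Mal kept a negative change in all 17 alternatives, and Myrf in all but the one without imiquimod replicate 1 (values without 1 library -0.132 to 0.0645). Olig2 turned to 0.0708 without imiquimod replicate 3 (-0.089 to 0.0708). The 2 lower myelin genes became 1 with no filter on low values and 5 after quantile normalization, and 0 to 3 when single libraries were left out. The 882 lower genes over all genes became 508 with no filter and 1574 with length and GC trends removed, and the lower genes of the 8 context lists (28) became 15 with no filter, 44 after quantile normalization and 42 with length and GC trends removed. Leaving out 1 library gave 660 to 1690 higher and 187 to 1296 lower genes over all genes, and 6 to 37 lower and 9 to 11 higher context genes. The share of calls that were higher was 62.1% and ran from 44.4% (length and GC trends removed) and 50.9% (quantile normalization) to 77.9% (without vehicle replicate 1). Leaving out libraries or filters changes the samples or genes by construction, and otherwise the cause was not tested.

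With a replicate block, 894 genes were higher and 436 lower, 15 context genes were lower, and the 2 lower myelin genes numbered 2 again. The labels do not say whether the replicate numbers pair the mice. Deviations of same-numbered libraries correlated at 0.0186, -0.097 and -0.0331 across genes, and 0 of 6 libraries correlated best with its own number. With 3 libraries per group, these values cannot exclude a pairing.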
